A study of Mus musculus with 26 samples.

Results

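This section compares the left ventricle of BPH/2J mice with that of BPN/3J mice when mice of both strains had received Cmpd17b. BPH/2J mice were bred for high blood pressure and BPN/3J mice are their normotensive counterpart, derived from the same foundation stock. Cmpd17b is a small-molecule agonist of formyl peptide receptors. The members are the batch 1 libraries whose titles name the strain and Cmpd17b: 5 from BPH/2J and 5 from BPN/3J, or 10 of the 26 libraries of the series. The other 2 Cmpd17b-treated BPH/2J libraries belong to batch 2, which holds no treated BPN/3J library, and were left out. All 10 mice were adults, by the study design, and received 50 mg/kg of Cmpd17b a day for 28 days by intraperitoneal injection. The labels name no transgene or induced mutation in either strain, and each animal gave 1 polyadenylated RNA library of bulk tissue. The 10 batch 1 libraries of vehicle-treated mice (5 of each strain, same duration) serve below for the same contrast without the drug, and they share no library with the treated comparison.

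Inbred strains differ at many loci at once, so blood pressure and the rest of the strain background cannot be told apart in this comparison. A pressure-loaded ventricle is known for higher expression of natriuretic peptides, which act through guanylyl cyclase receptors and cyclic GMP to relax vessels and promote sodium loss, and for the return of sarcomere genes of the fetal heart. Collagen and matricellular genes commonly rise with it, and genes of fatty acid oxidation commonly fall. Formyl peptide receptors, which Cmpd17b activates, are found mainly on myeloid cells, where their agonists can promote or resolve inflammation.

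The 10 treated libraries held between 29231100 and 42046500 counts, and no pair among the 45 was identical. Ventricular muscle genes were uniform: Myh6, the fast alpha-myosin heavy chain, lay between 17030 and 22670 CPM (the share of a library's counts taken by a gene, scaled by TMM) in all 10. The treated libraries' mitochondrial share ran from 33.1% to 38% of counts, with overlap between strains. Trace kidney transcripts varied from mouse to mouse: Kap, a proximal tubule gene, lay between 0.568 and 61.7 CPM in treated BPH/2J and between 1.22 and 120 CPM in treated BPN/3J. BPH/2J replicate 4 stood apart from its group for interferon and antigen presentation genes, described below. One vehicle library, BPN/3J replicate 7, had the lowest quality weight of the 20 batch 1 libraries (0.0779 by limma voom, the next lowest being 0.48), and it enters the shared estimate of spread. Nothing in the labels ties mice to litters or cages, so the p-values below measure the spread between these animals alone.

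Promoters are shown for genes whose treated values are described below: Nppa and Nppb, natriuretic peptide genes that lie next to each other yet ordered the strains differently, and Ciart, a repressor within the circadian clock. Each is the 250 bases before the start of the gene in RefSeq, build GRCm38.p6, read 5′ to 3′ on the gene's strand. Capitals mark TATAAA in the natriuretic peptide genes and CACGTG, the E-box bound by clock activators, in Ciart, both searched on either strand.
Nppa, chr4:148000472-148000721, plus strand: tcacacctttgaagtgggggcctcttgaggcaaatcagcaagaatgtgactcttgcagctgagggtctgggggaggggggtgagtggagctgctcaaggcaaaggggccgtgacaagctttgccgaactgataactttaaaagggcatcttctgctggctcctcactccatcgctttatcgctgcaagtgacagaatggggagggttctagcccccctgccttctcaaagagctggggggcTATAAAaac
Nppb, chr4:147985650-147985899, plus strand: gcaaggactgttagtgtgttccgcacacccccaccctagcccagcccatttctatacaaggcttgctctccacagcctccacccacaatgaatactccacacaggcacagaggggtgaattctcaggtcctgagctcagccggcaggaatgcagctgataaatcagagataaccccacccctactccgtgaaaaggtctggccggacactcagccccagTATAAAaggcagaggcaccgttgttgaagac
Ciart, chr3:95882229-95882478, minus strand: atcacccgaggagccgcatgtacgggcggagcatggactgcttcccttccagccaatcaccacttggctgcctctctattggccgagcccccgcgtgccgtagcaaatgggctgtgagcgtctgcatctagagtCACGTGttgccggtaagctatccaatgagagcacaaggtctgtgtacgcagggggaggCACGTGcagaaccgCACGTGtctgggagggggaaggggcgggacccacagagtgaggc
TATAAA occurred once in each natriuretic peptide window, starting 9 bases before the annotated start in Nppa and 31 in Nppb. CACGTG occurred 3 times in Ciart, starting 116, 58 and 44 bases before it. Of all 32851 windows of this length in the table, 12.4% held TATAAA and 6.02% held CACGTG. These matches are descriptions of letters, and none was tested for binding.

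The strains were far apart under the drug, in both directions. Of 15400 genes tested, 1961 differed between treated BPH/2J and treated BPN/3J at an adjusted p under 0.05 (edgeR quasi-likelihood test, Benjamini-Hochberg), which is 12.7%. Of these, 1012 were higher in BPH/2J (6.57% of genes tested) and 949 were lower (6.16%), and 802 (5.21%) differed by over 2-fold. In 2314 genes (15%) the 5 values of either strain did not overlap, with BPH/2J above in 7.28% and BPN/3J above in 7.75%. The count differed between fits: 3022 genes were called when vehicle BPN/3J replicate 7 was left out of the shared fit, 2928 of 14591 (20.1%) when the 10 treated libraries were fitted alone, 3287 with limma voom quality weights and 2247 with DESeq2. Of the 1961, 1842 were also called in the same direction by the fit of the 10 alone.

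Many of the widest differences were in genes nearly silent in treated mice of 1 strain only. Slc28a2b, a member of the concentrative nucleoside transporter family, gave 10.5, 12.4, 9.31, 10.9 and 10.7 CPM in treated BPH/2J and 0.0526, 0, 0, 0.0252 and 0 CPM in treated BPN/3J. Plppr1, a neuronal relative of the lipid phosphate phosphatases, gave 20.2, 28.2, 22.5, 22.7 and 21.3 CPM against 0.0526, 0.203, 0.0298, 0 and 0 CPM. For both genes every BPH/2J library was far above every BPN/3J library. The log2 differences were 9.04 ± 0.41 and 8.72 ± 0.29 (SE, n = 5 per strain, edgeR adjusted p = 5.55e-14 and 1.58e-16). Here and below the SE of a log2 difference is its size over the square root of the F statistic of the test. It can understate the uncertainty of genes with almost no counts in a strain. On leaving out 1 treated library these differences ran from 8.77 to 9.97 and from 8.37 to 9.91. Gdpd3, a phosphodiesterase that releases lysophosphatidic acid, stood at 26.4 ± 2.56 CPM (SD, n = 5) against 0.144 ± 0.0747 CPM. Edn3, which encodes the peptide endothelin-3, gave 7.11, 7.61, 8.42, 15.2 and 9.501 CPM in treated BPH/2J, the highest in replicate 4, and 0.0298 to 0.113 CPM in treated BPN/3J. Further genes with this pattern were Tafa2, a secreted chemokine-like protein (log2 difference 5.74 ± 0.25, adjusted p by edgeR = 1.98e-14), and Zfp971, a zinc finger gene (4.20 ± 0.24, adjusted p = 3.91e-12).

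In the other direction, Il15, the cytokine that sustains NK cells and memory T cells, gave 2.37, 1.64, 1.69, 2.13 and 1.69 CPM in treated BPH/2J against 30.5, 31.4, 35.7, 37.9 and 35.1 CPM in treated BPN/3J. The groups were separated by a log2 difference of -4.16 ± 0.16 (adjusted p by edgeR = 2.51e-15). Sycp2, a protein of the synaptonemal complex, stood at 0.423 ± 0.0871 CPM against 13.9 ± 0.997 CPM (SD, n = 5), and Rab6b, a small GTPase of vesicle transport, lay between 0.611 and 0.781 CPM against 15.1 to 17.2 CPM. Abca4, a lipid-moving ABC transporter, was lower by a log2 difference of -4.12 ± 0.17, Dnajc28, a J-domain co-chaperone family member, by -3.80 ± 0.24, and the zinc finger genes Zfp33b and Zfp982 by -5.63 ± 0.25 and -3.95 ± 0.15. Cyp2b10, a cytochrome P450 known in liver for induction by xenobiotics, gave 2.74 to 6.83 CPM in treated BPN/3J, with replicate 5 the highest, and 0.0279 to 0.367 CPM in treated BPH/2J. Ubxn10, a UBX-domain protein, was lower by -3.88 ± 0.29.

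**Figure D1:**
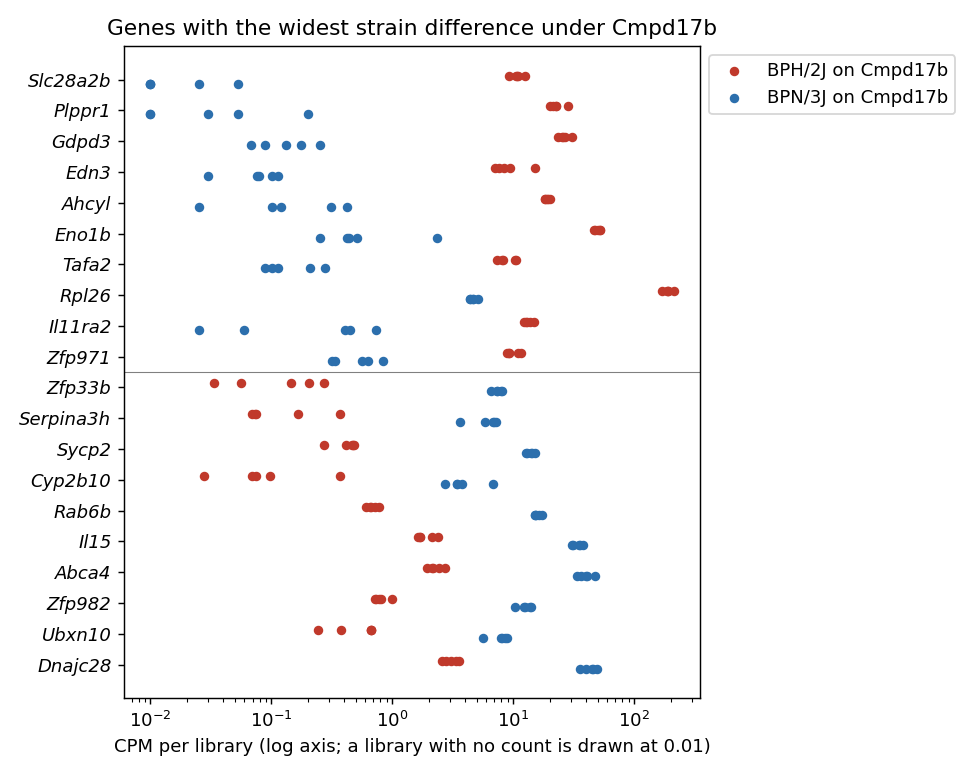
CPM of each Cmpd17b-treated library on a log axis for 10 genes per direction with the largest called log2 difference. The rule also asks for a mean log2 CPM of 1 or more, a proper symbol and no overlap. Each point is 1 mouse and a library with no count is drawn at 0.01. In every gene the 5 BPH/2J points and the 5 BPN/3J points lie apart, with Slc28a2b between 9.31 and 12.4 CPM in BPH/2J and at or below 0.0526 CPM in BPN/3J.

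Several of the widest differences fall on genes with close copies elsewhere in the genome, for which the split of reads is uncertain. Rpl26, a ribosomal protein with processed copies, gave 170 to 213 CPM in treated BPH/2J and 4.37 to 5.08 CPM in treated BPN/3J. Eno1b, a close copy of the enolase gene Eno1, lay between 47.0 and 52.2 CPM against 0.252 to 2.37 CPM, while Eno1 itself was lower in treated BPH/2J, at 85.8 to 90.3 CPM against 129 to 150 CPM. Ahcyl, Il11ra2 and Serpina3h, which also have close relatives, differed by log2 values of 6.56 ± 0.30, 5.32 ± 0.33 and -5.37 ± 0.51. The opposite signs of Eno1b and Eno1 are measured values, and whether reads moved between the copies was not tested. In 27 called genes all 5 libraries of 1 strain had no count. Clec2e, a C-type lectin of the NK gene complex, was at 0 in all 5 treated BPN/3J libraries against 51 counts over the 5 treated BPH/2J libraries, which is at least 17-fold higher when set against a floor of 3 counts over the group.

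Called genes lay beside each other along the chromosomes more often than uncalled ones. RefSeq gene order (build GRCm38.p6, used here for order only) placed 14845 of the genes tested by symbol and 86 by an older name. Of the 1864 called genes placed, 39.1% had a called gene as the next tested gene on either side, against 20.1% of the 13067 uncalled genes. There were 23 runs of at least 4 called genes in a row, holding 112 genes. The longest runs had 9. In 1 of these, Rnaset2b, a ribonuclease T2 copy, gave 63.0 to 75.5 CPM in treated BPH/2J against 3.81 to 6.71 CPM in treated BPN/3J. Its neighbour Tagap1, a GTPase activator copy, was higher by 2.01 ± 0.09 (log2), while Tagap, a GTPase activator of lymphocytes in the same run, was lower by -3.57 ± 0.27. A second run of 9 lay in a zinc finger cluster, where Zfp970 was lower (-1.27 ± 0.12) and Zfp971 higher (4.20 ± 0.24). A run of 8 held Crim1, a regulator of BMP signalling (0.63 ± 0.10), Fez2 (1.09 ± 0.09) and Eif2ak2, the double-stranded RNA sensor kinase PKR (0.77 ± 0.11), all higher. A run of 6 held Rpl29, lower by -1.61 ± 0.12, and Parp3, lower by -0.89 ± 0.08. Both directions occurred within each of these 4 runs. In a run of 4, the ribosomal protein gene Rpl30, named here after its values were seen, gave 114 to 139 CPM in treated BPH/2J against 34.8 to 51.2 CPM.

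Of 26 tested genes of cardiac stress and the fetal program, 8 were higher in treated BPH/2J and 1 was lower, and the median log2 difference was 0.27, against -0.004 over all genes tested. That is 34.6% called where 12.7% of all genes were. The lists here and below were chosen with earlier results of these data known, and some genes, such as Nppa and Tpm2, are on more than 1 list. The fit of the 10 treated libraries alone gave 9 higher and 4 lower, with a median of 0.07. Nppa, which encodes atrial natriuretic peptide, gave 589, 708, 567, 509 and 443 CPM in treated BPH/2J. In treated BPN/3J it gave 190, 196, 199, 179 and 75.7 CPM, with replicate 5 the lowest. The groups did not overlap, and the log2 difference was 1.75 ± 0.39 (SE, adjusted p by edgeR = 0.00398). Among vehicle mice Nppa ran from 317 to 776 CPM in BPH/2J and from 164 to 855 CPM in BPN/3J, which overlap widely (log2 difference 0.10, adjusted p by edgeR = 0.9). The difference between these strain effects had an unadjusted p of 0.00635 and did not pass adjustment over all genes, as no gene did.

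Nppb, which encodes B-type natriuretic peptide and whose promoter is shown above beside that of Nppa, had the opposite order. It gave 164, 177, 190, 174 and 139 CPM in treated BPH/2J against 194, 214, 238, 274 and 213 CPM in treated BPN/3J. The values did not overlap, but the log2 difference of -0.43 ± 0.19 missed the threshold (adjusted p by edgeR = 0.183). It passed in the fit of the 10 libraries alone (adjusted p by edgeR = 0.00382) and with limma voom (0.0204). Under vehicle the same gene was lower in BPH/2J by -1.04 (adjusted p by edgeR = 0.000482).

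Ankrd1, a titin-binding protein of the sarcomere that responds to stretch, gave 1289, 1208, 1639, 1411 and 1299 CPM in treated BPH/2J and 396, 221, 227, 319 and 238 CPM in treated BPN/3J. Its log2 difference was 2.29 ± 0.21 (adjusted p by edgeR = 3.16e-08), beside 1.64 under vehicle. Tpm2, beta-tropomyosin, stood at 36.1 ± 5.36 CPM (SD, n = 5) against 12.9 ± 0.825 CPM. Tnni1, the slow skeletal troponin I of the fetal heart, lay between 0.548 and 1.10 CPM against 0 to 0.184 CPM, and Vgll2, a cofactor of TEAD factors, between 0.307 and 0.701 CPM against 0 to 0.102 CPM. The only called gene of the list that was lower was Mstn, myostatin, an inhibitor of muscle growth, at 0.0649 ± 0.0298 CPM against 0.525 ± 0.266 CPM. Myl4, the atrial essential light chain, gave 3.13 to 7.02 CPM against 0.880 to 1.51 CPM, the highest in replicate 4 of BPH/2J. That call was lost when 24 libraries were fitted with a batch term (log2 difference 1.90, adjusted p by edgeR = 0.168). Of 10 tested markers of atrial and conduction tissue 3 were higher and none lower (30% called, against 12.7% of all genes). Their summed level, Nppa included, ran from 528 to 795 CPM in treated BPH/2J and from 167 to 281 CPM in treated BPN/3J. Without Nppa it was 84.3 to 103 CPM against 79.8 to 91.2 CPM, which overlap. Myl7, the atrial regulatory light chain and a defining marker, was near 0, at 0 to 1.149 CPM (the highest in BPH/2J replicate 4) and 0 to 0.210 CPM. The part of atrial tissue in these differences was not tested.

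Other classic load markers did not pass. Myh7, the slow myosin heavy chain, gave 914 to 1116 CPM in treated BPH/2J and 984 to 1428 CPM in treated BPN/3J, with BPN/3J replicate 2 the highest (log2 difference -0.07 ± 0.15, adjusted p by edgeR = 0.87). Acta1, skeletal alpha-actin, gave 517 to 702 CPM against 564 to 951 CPM (-0.41 ± 0.16, adjusted p by edgeR = 0.115, and 0.0431 without BPN/3J replicate 5). Ccn2, connective tissue growth factor, gave 43.5 to 62.0 CPM against 57.4 to 77.1 CPM (-0.35 ± 0.23).

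**Figure D2:**
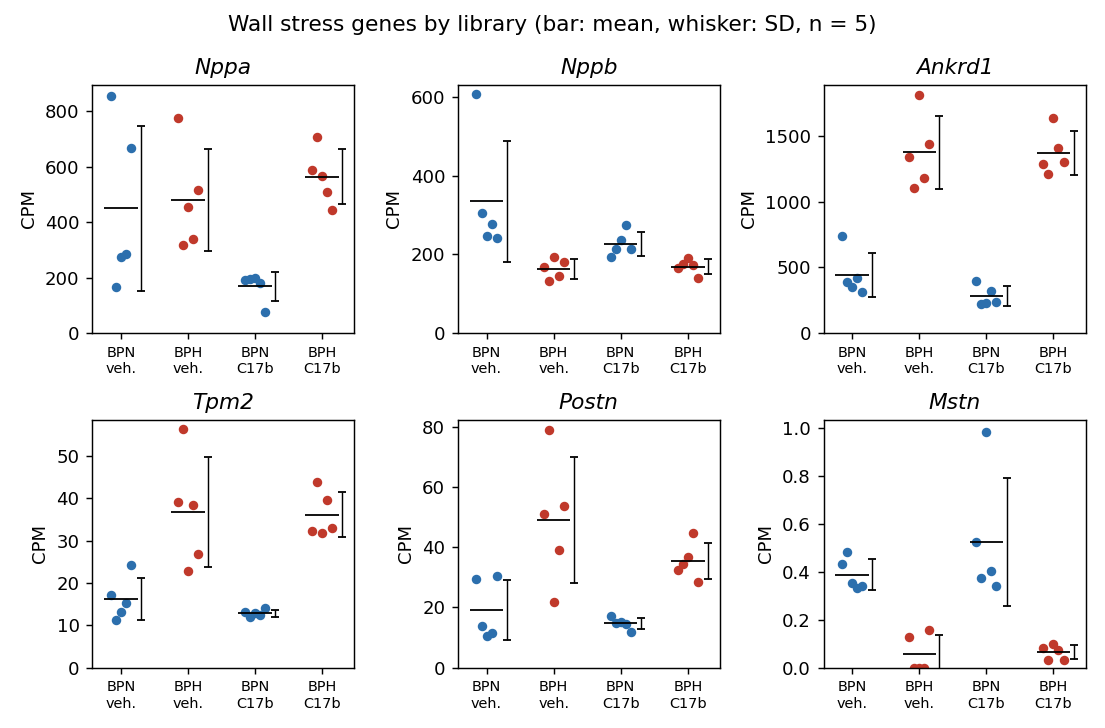
CPM of each library (points) with the group mean (bar) and SD (whisker) for 6 genes of cardiac stress in the 4 batch 1 groups of 5 mice, vehicle at left and Cmpd17b (C17b) at right of each panel. In Nppa the treated groups lie apart (443 to 708 against 75.7 to 199 CPM) and the vehicle groups overlap, whereas Ankrd1 and Tpm2 are higher in BPH/2J in the treated pair without overlap.

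Called genes close to Nppa, singled out after their values were seen, were also higher in treated BPH/2J. Clcn6, an endosomal chloride transporter, gave 12.6 to 15.2 CPM against 8.05 to 10.6 CPM (log2 difference 0.62 ± 0.10, adjusted p by edgeR = 0.000104). Agtrap, which binds the angiotensin II type 1 receptor and promotes its internalisation, gave 49.1 to 56.8 CPM against 40.5 to 46.8 CPM (0.28 ± 0.09, adjusted p by edgeR = 0.0337). The Agtrap call was lost on leaving out any of 6 of the 10 treated libraries, with an adjusted p by edgeR of at most 0.0912 over all alternatives.

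Of 15 tested genes of natriuretic peptide and cyclic GMP signalling, 3 were higher and 2 lower (33.3% called, against 12.7% of all genes). Prkg1, the cyclic GMP-dependent protein kinase, gave 9.42 to 13.8 CPM in treated BPH/2J against 6.91 to 8.32 CPM (0.63 ± 0.13, adjusted p by edgeR = 0.00154). Pde5a, the phosphodiesterase that breaks cyclic GMP down, gave 2.69 to 4.01 CPM against 4.91 to 5.81 CPM (-0.54 ± 0.14, adjusted p by edgeR = 0.00816). For both genes the values of the strains lay apart, and under vehicle the differences were 0.60 and -0.52.

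Of 64 tested genes of extracellular matrix and fibrosis, 12 were higher in treated BPH/2J and 1 was lower (20.3% called, where 12.7% of all genes were), with a median log2 difference of 0.23. In the fit of the 10 libraries alone 20 were higher and 4 lower, beside 10.2% of all genes higher. Leaving out 1 library left between 6 (without BPN/3J replicate 3 or replicate 5) and 13 higher. Mfap4, a microfibril-associated glycoprotein, gave 7.84, 7.41, 11.9, 12.2 and 7.02 CPM against 1.68, 1.35, 1.31, 1.36 and 1.05 CPM (2.78 ± 0.37, adjusted p by edgeR = 9.9e-06). Postn, periostin, a matricellular protein of activated fibroblasts, gave 28.6 to 44.8 CPM against 11.9 to 17.1 CPM (1.26 ± 0.32, adjusted p by edgeR = 0.0105). Col16a1, a fibril-associated collagen, and Plod2, a collagen lysyl hydroxylase, were higher by 0.95 ± 0.21 and 0.35 ± 0.08. The exception was Thbs1, thrombospondin-1, an activator of latent TGF-beta, at 2.03 to 3.46 CPM against 3.34 to 15.2 CPM (-1.45 ± 0.30, adjusted p by edgeR = 0.0016). The main fibrillar collagens were not called: Col1a1 gave 39.3 to 59.1 CPM against 30.1 to 64.6 CPM, and Col3a1 gave 100 to 158 CPM against 74.9 to 102 CPM, a log2 difference of 0.62 ± 0.22 (adjusted p by edgeR = 0.0687). Col3a1 passed without BPH/2J replicate 5 (adjusted p by edgeR = 0.0488), with DESeq2 (0.0269) and in the fit of the 10 libraries (0.0134). The 16 fibroblast markers gave no higher call and 1 lower one (6.25% called, against 12.7% of all genes). Their summed level, including Gsn, the called member, was 1790 to 2060 CPM in treated BPH/2J against 2090 to 2430 CPM. Most markers did not share the direction of the sum: 11 log2 differences were positive and 5 negative, with a median of 0.095. In bulk tissue, fewer cells of a type and less RNA per cell cannot be told apart.

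Among 26 tested matrix metalloproteinases and inhibitors, 2 were higher and 2 lower, a share near that of all genes. Mmp3, stromelysin-1, gave 1.00 to 1.96 CPM in treated BPH/2J against 0.0252 to 0.0895 CPM (4.85 ± 0.53, adjusted p by edgeR = 3.36e-07). Mmp28 and Mmp25, which sit low, were lower by -1.17 ± 0.24 and -2.48 ± 0.57. Timp1, the inhibitor most often raised in fibrosis, gave 2.04 to 2.88 CPM against 0.428 to 2.84 CPM and was not called (adjusted p by edgeR = 0.278).

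Of 34 tested sarcomere genes, 4 were higher and 3 lower (20.6% called, against 12.7% of all genes). Neb, nebulin, the thin-filament ruler of skeletal muscle, gave 4.85 to 12.3 CPM, the highest in BPH/2J replicate 4, against 1.27 to 3.76 CPM (1.51 ± 0.31, adjusted p by edgeR = 0.00135). Myom3, an M-band protein, was lower (-1.13 ± 0.15, adjusted p by edgeR = 7.44e-06). Des, desmin, the intermediate filament of muscle, gave 686, 687, 721, 1392 and 709 CPM in treated BPH/2J and 1404, 1588, 1332, 1318 and 1395 CPM in treated BPN/3J. Replicate 4 of BPH/2J thus lay among the BPN/3J values and the other 4 well below them, and the vehicle BPH/2J mice also split, at 595 to 693 CPM in 3 and 1205 to 1446 CPM in 2. The log2 difference of -0.75 ± 0.22 passed with an adjusted p by edgeR of 0.0277, and on leaving out a library it lay between -1.01 and -0.68, with the call lost in 5 of the 10 cases and without a filter (adjusted p by edgeR up to 0.077). Smooth muscle cells and pericytes also make desmin. The summed level of 16 of their markers, Des included, was 1840 to 2430 CPM against 2470 to 2730 CPM. Des makes up a large part of that sum, so the sum cannot show whether the other markers differ. Of the 16, none was higher and 2 were lower (12.5% called, against 12.7% of all genes), with a median of -0.048. The part of these cells in the Des difference was not tested. Hspb7, a small heat shock protein of the cardiac sarcomere, gave 1877 to 2347 CPM against 2790 to 3484 CPM (-0.59 ± 0.13, adjusted p by edgeR = 0.00233).

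Of 28 calcium cycling genes 2 were higher and 2 lower, a share close to the background. Casq1, the skeletal calsequestrin, lay between 8.40 and 14.7 CPM against 3.00 to 5.28 CPM (1.53 ± 0.17, adjusted p by edgeR = 4.15e-07). Cacna2d1, an auxiliary subunit of L-type calcium channels, was higher by 0.49 ± 0.12. Among 40 ion channel and gap junction genes 4 were higher and 4 lower (20% called, against 12.7% of all genes). The fit of the 10 libraries gave 9 and 6, where 20.1% of all genes were called. Kcnk1, a background potassium channel, gave 1.34 to 2.55 CPM against 0.0339 to 0.368 CPM. Abcc8, the SUR1 subunit of ATP-sensitive potassium channels, was higher by 0.50 ± 0.10. Kcnd3, which carries the transient outward current, Kcnv2, a silent potassium channel subunit, and Scn3b, a sodium channel beta subunit, were lower by -0.52 ± 0.12, -0.83 ± 0.21 and -1.10 ± 0.29.

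Of 16 tested renin-angiotensin-aldosterone genes 2 were higher and 2 lower (25% called, against 12.7% of all genes). Agt, angiotensinogen, the precursor of angiotensin peptides, gave 1.09, 0.835, 0.772, 0.856 and 0.792 CPM in treated BPH/2J against 2.81, 5.49, 3.79, 2.82 and 2.69 CPM (-2.01 ± 0.20, adjusted p by edgeR = 8.93e-08). Enpep, aminopeptidase A, which converts angiotensin II to angiotensin III, gave 7.16 to 8.47 CPM against 14.3 to 19.5 CPM (-1.07 ± 0.11, adjusted p by edgeR = 2.03e-07). Both are also expressed in kidney. The summed level of 17 kidney markers was 2.84 to 98.3 CPM in treated BPH/2J and 5.27 to 186 CPM in treated BPN/3J. That of 18 hepatocyte markers was 24.1 to 34.9 CPM against 41 to 49 CPM, without overlap. Of the 9 hepatocyte markers tested, 3 were lower and none higher (33.3% called, against 12.7% of all genes). Their log2 differences were positive in 4 and negative in 5. Alb, the albumin gene of liver, was near 0 with overlap, at 0 to 0.861 CPM against 0.0298 to 0.567 CPM. The part of kidney or liver RNA in these differences was not tested. Ace, which makes angiotensin II, was not called (log2 difference 0.06 ± 0.12). Agtr1a, the main angiotensin II receptor, gave 38.9 to 52.0 CPM against 32.8 to 36.3 CPM without overlap (0.35 ± 0.13, adjusted p by edgeR = 0.0998, and 0.00142 in the fit of the 10 libraries).

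Of 35 adrenergic signalling genes 3 were higher and 4 lower (20% called, beside the 12.7% of all genes). Grk5, a kinase that desensitises beta-adrenergic receptors, gave 34.4 to 42.0 CPM against 58.8 to 69.1 CPM (-0.75 ± 0.11, adjusted p by edgeR = 2.08e-05), whereas Grk3, of the same family, was higher (0.54 ± 0.09, adjusted p by edgeR = 0.000121). Rgs2, a GTPase activator that limits signalling through Gq, gave 11.5 to 19.3 CPM against 6.52 to 9.15 CPM (1.10 ± 0.15), and its relative Rgs4 was lower (-0.55 ± 0.11). Pde4a, a cyclic AMP phosphodiesterase, and Slc22a3, a transporter that clears catecholamines outside neurons, were lower by -0.66 ± 0.09 and -1.13 ± 0.15. Adra1a, an alpha1-adrenergic receptor, gave 56.2 to 66.2 CPM against 41.4 to 50.4 CPM without overlap (0.41 ± 0.15) and missed the threshold with an adjusted p by edgeR of 0.0811, while the fit of the 10 libraries gave 8.57e-05.

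Among 11 endothelin genes Edn3 alone was called (9.09%, against 12.7% of all genes). Edn1, endothelin-1, gave 2.27 to 3.46 CPM in treated BPH/2J against 3.05 to 4.48 CPM, and its receptor gene Ednra gave 24.9 to 31.7 CPM against 28.3 to 41.9 CPM. Ednrb, the receptor that also binds endothelin-3, gave 10.5 to 13.7 CPM against 13.7 to 16.8 CPM (-0.32 ± 0.12, adjusted p by edgeR = 0.0948, and 0.015 in the fit of the 10 libraries). Of 27 other vasoactive genes 4 were higher and 2 lower (22.2% called, against 12.7% of all genes). Ddah1, which removes an inhibitor of nitric oxide synthase, Ptgis, prostacyclin synthase, and Ramp1, a subunit of the CGRP receptor, were higher by 0.73 ± 0.15, 0.80 ± 0.19 and 0.97 ± 0.27. Ephx2, soluble epoxide hydrolase, which breaks down vasodilator epoxides, gave 193 to 218 CPM against 250 to 307 CPM (-0.41 ± 0.08, adjusted p by edgeR = 0.000619). Angpt1, the agonist of the endothelial receptor Tie2, was higher (0.74 ± 0.20, adjusted p by edgeR = 0.0131) and Angpt2, its context-dependent antagonist, was lower (-0.80 ± 0.21, adjusted p by edgeR = 0.0115). Of 26 endothelial markers none was higher and 1 was lower (3.85% called, against 12.7% of all genes). Their log2 differences were positive in 10 and negative in 16, with a median of -0.037. Their summed level was 3150 to 3470 CPM against 3430 to 3700 CPM.

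Transcripts of the formyl peptide receptors themselves were scarce in treated mice of either strain. Fpr1 had 19 counts over the 5 treated BPH/2J libraries and 28 over the 5 treated BPN/3J libraries, and Fpr2 had 14 and 41. Neither gene passed the expression filter, so neither was tested. Of 24 tested genes of formyl peptide receptors and the resolution of inflammation, 1 was higher and 1 lower, 8.33% against 12.7% of all genes. Lgr6, a receptor for the resolvin-type mediator maresin 1, gave 72.7, 63.8, 44.0, 39.6 and 49.4 CPM in treated BPH/2J and 5.997, 5.15, 4.95, 6.28 and 5.87 CPM in treated BPN/3J (3.25 ± 0.15, adjusted p by edgeR = 1.01e-13). Mertk, the receptor by which macrophages clear dead cells, gave 2.84 to 3.75 CPM against 7.52 to 9.02 CPM (-1.27 ± 0.18, adjusted p by edgeR = 1.02e-05). Anxa1, a protein ligand of the receptors, gave 18.4 to 24.4 CPM against 17.9 to 27.8 CPM and was not called.

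Genes of MHC class I antigen presentation, which display peptides to T cells, were lower in treated BPH/2J in 6 of 25 members tested and higher in none, where 6.16% of all genes were lower, with a median log2 difference of -0.32. In the fit of the 10 libraries alone 4 were lower, where 9.86% of all genes were. H2-K1, a classical class I heavy chain, gave 51.0, 65.5, 65.1, 131 and 49.8 CPM in treated BPH/2J and 126, 134, 115, 155 and 111 CPM in treated BPN/3J. B2m, the light chain, gave 84.7, 102, 118, 220 and 86.5 CPM against 192, 190, 185, 273 and 187 CPM. In both genes replicate 4 of BPH/2J lay among the BPN/3J values and the other 4 below all of them. Class II genes showed the same order: Cd74, the invariant chain, gave 61.3 CPM in replicate 4 and 12.5 to 22.9 CPM in the other 4 against 51.7 to 61.0 CPM, and H2-Aa gave 7.75, 11.1, 6.97, 26.3 and 5.65 CPM against 21.4 to 28.5 CPM. With all 10 libraries 1 of 12 class II genes was lower (H2-DMb1, a chaperone of peptide loading, -1.61 ± 0.42) and the median was -0.84. Under vehicle 14 class I and 5 class II genes were lower and none higher, where 8.16% of all genes were lower. The vehicle medians were -0.52 and -1.02.

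The counts under Cmpd17b depend on single libraries. Without BPH/2J replicate 4, 10 class I genes and 8 of the 12 class II genes were lower, none was higher, and the medians were -0.52 and -1.37, where 5.23% of all genes were lower and 5.52% higher in that fit. The adjusted p by edgeR without that library was 0.000124 for H2-K1, 0.000364 for B2m, 0.000299 for Cd74, 0.00088 for H2-Aa and 0.000479 for H2-Eb1, the class II beta chain. Without BPH/2J replicate 5 or BPN/3J replicate 4 the class I count was 2, and without BPH/2J replicate 1 or 3 it was 3. The calls of H2-K1 and B2m were lost on leaving out any of 3 and 5 of the other treated libraries, and in the fit of the 10 libraries alone (adjusted p by edgeR = 0.0806 and 0.118). H2 genes have close copies and strain alleles that can differ from the reference, so their read counts are uncertain.

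Interferon response genes also stood high in that library. Of 49 tested, 1 was higher and 2 lower with all 10 libraries (6.12% called, against 12.7% of all genes). Without BPH/2J replicate 4, 9 were lower, where 5.23% of all genes were, and the median changed from -0.06 to -0.21. The summed level of the list was 796 CPM in replicate 4, 391 to 431 CPM in the other 4 treated BPH/2J libraries and 431 to 540 CPM in treated BPN/3J. Tgtp1, an interferon-inducible GTPase, gave 8.78 CPM in replicate 4, 1.42 to 2.40 CPM in the other 4 and 4.06 to 15.6 CPM in treated BPN/3J. Without that library the log2 difference of Tgtp1 was -2.40, with an adjusted p by edgeR of 0.000198, against 0.038 with it. Members that did not overlap between the strains were Xaf1, a pro-apoptotic interferon target, at 5.72 to 8.53 CPM against 19.3 to 23.5 CPM (-1.66 ± 0.15), and Ifi35, at 14.3 to 19.2 CPM against 5.04 to 6.55 CPM (1.54 ± 0.16).

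**Figure D3:**
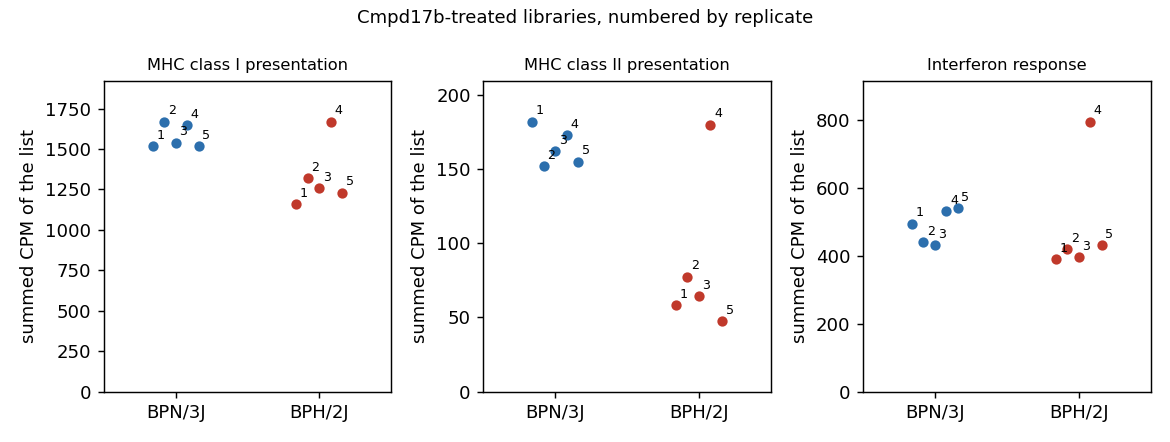
Summed CPM of the MHC class I, MHC class II and interferon response lists in each Cmpd17b-treated library, 1 point per mouse numbered by replicate. BPH/2J replicate 4 stands at 180 CPM for MHC class II, within the 152 to 182 CPM of BPN/3J, where the other 4 BPH/2J libraries lie between 47.6 and 77.5 CPM.

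Of 48 inflammatory cytokine, chemokine and adhesion genes 6 were higher and 1 lower, and the 14.6% called lay near the 12.7% of all genes. Ccl8 and Ccl11, chemokines that draw monocytes and eosinophils, were higher by 2.86 ± 0.53 and 1.09 ± 0.23 (adjusted p by edgeR = 0.000512 and 0.00129). Ccl8 gave 7.34 CPM in BPH/2J replicate 4 and 1.80 to 2.94 CPM in the other 4, all above the 0.271 to 0.806 CPM of treated BPN/3J. Cxcl9, a T cell chemokine induced by interferon gamma, was lower (-1.70 ± 0.39). The 18 tested genes of the interleukin-15 axis and of NK and T cells, Il15 included, had 3 higher and 2 lower calls (27.8%, against 12.7% of all genes), among them Gzma, a granule protease of cytotoxic lymphocytes, higher at 0.530 to 1.10 CPM against 0.0263 to 0.277 CPM (2.58 ± 0.46, adjusted p by edgeR = 0.000262). Of 27 macrophage and monocyte markers 1 was higher and 2 lower (11.1% called, against 12.7% of all genes). Cbr2, a carbonyl reductase of resident cardiac macrophages, gave 61.2 to 76.6 CPM against 9.55 to 11.7 CPM (2.71 ± 0.14, adjusted p by edgeR = 3.95e-13), and Retnla, a marker of alternative activation, was lower (-1.18 ± 0.32). The summed level of the macrophage list, Cbr2 included, was 203 to 271 CPM against 167 to 190 CPM. Without Cbr2 it was 142 to 194 CPM against 156 to 179 CPM, which overlap. None of 8 B cell markers or 9 neutrophil and mast cell markers was called. Complement genes had 1 higher and 4 lower calls among 28 (17.9%, against 12.7% of all genes): Masp2, a protease of the lectin pathway, was higher (4.23 ± 0.56), and C7, of the membrane attack complex, gave 2.54 to 5.72 CPM against 8.59 to 18.9 CPM (-1.65 ± 0.24). Clu, clusterin, an inhibitor of that complex, was also lower (-0.48 ± 0.12).

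Genes of fatty acid oxidation and lipid handling were lower in treated BPH/2J where they were called. Of 56 tested, 11 were lower and none higher (19.6% called, against 12.7% of all genes, of which 6.16% lower), and 44 of the 56 log2 differences were negative, with a median of -0.18. In the fit of the 10 libraries alone 22 were lower and none higher, beside 9.86% of all genes lower, and leaving vehicle BPN/3J replicate 7 out of the shared fit also gave 22. Leaving out BPH/2J replicate 2 or BPN/3J replicate 5 gave 7. Acaa2, the last enzyme of mitochondrial beta-oxidation, gave 500, 503, 460, 471 and 545 CPM in treated BPH/2J against 698, 707, 757, 792 and 857 CPM in treated BPN/3J (-0.62 ± 0.08, adjusted p by edgeR = 2.53e-06). Decr1, needed for unsaturated fatty acids, gave 310 to 372 CPM against 395 to 517 CPM (-0.49 ± 0.09). Cpt2 and Slc25a20, which bring acylcarnitines into the mitochondrion, were lower by -0.32 ± 0.08 (adjusted p by edgeR = 0.00813) and -0.52 (adjusted p by edgeR = 0.0301). The Slc25a20 call was lost on leaving out any of 6 libraries (adjusted p by edgeR up to 0.0793), and its adjusted p was 2.39e-05 in the fit of the 10 libraries. Ech1, which isomerises dienoyl-CoA and is not on the list, gave 832 to 974 CPM against 1123 to 1596 CPM (-0.59 ± 0.10). Acadm, the medium-chain dehydrogenase, was called in the fit of the 10 libraries alone (-0.37, adjusted p by edgeR = 0.00118, against 0.209 in the shared fit).

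Called members outside the oxidation pathway were lower too. Ucp2, a mitochondrial carrier of the inner membrane, gave 37.3, 42.1, 36.5, 35.8 and 35.7 CPM in treated BPH/2J against 134, 132, 146, 130 and 91.4 CPM (-1.76 ± 0.17, adjusted p by edgeR = 5.71e-08). Fasn, fatty acid synthase, and Acot7, an acyl-CoA thioesterase, were lower by -0.95 ± 0.12 and -0.66 ± 0.08. Under vehicle the list had 5 higher and 10 lower calls and a median of -0.05. Respiratory chain subunits encoded in the nucleus had 1 lower call among 52 (1.92%).

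Of 52 genes of glycolysis, glycogen and glucose use, 1 was higher and 7 were lower, and the 15.4% called lay near the 12.7% of all genes. The fit of the 10 libraries gave 2 and 13, where 20.1% of all genes were called. Phkg1, the muscle catalytic subunit of phosphorylase kinase, gave 3.08 to 4.54 CPM against 18.6 to 26.2 CPM (-2.49 ± 0.17, adjusted p by edgeR = 1.48e-10). Eno3, the muscle enolase, gave 801 to 910 CPM against 1268 to 1326 CPM (-0.58 ± 0.09), Pfkp, the platelet-type phosphofructokinase, was lower by -0.74 ± 0.13, and Slc2a12, a glucose transporter, by -0.94 ± 0.19. Hk1, hexokinase 1, was the higher one, at 170 to 192 CPM against 108 to 135 CPM (0.59 ± 0.11, adjusted p by edgeR = 0.000612). Antioxidant and xenobiotic genes had 5 higher and 6 lower calls among 42 (26.2%, against 12.7% of all genes). Cyp4b1, a fatty acid hydroxylase, was higher (2.49 ± 0.26), and the glutathione transferases Gsta4 and Gstm1 were lower by -0.56 ± 0.10 and -0.52 ± 0.09.

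**Figure D4:**
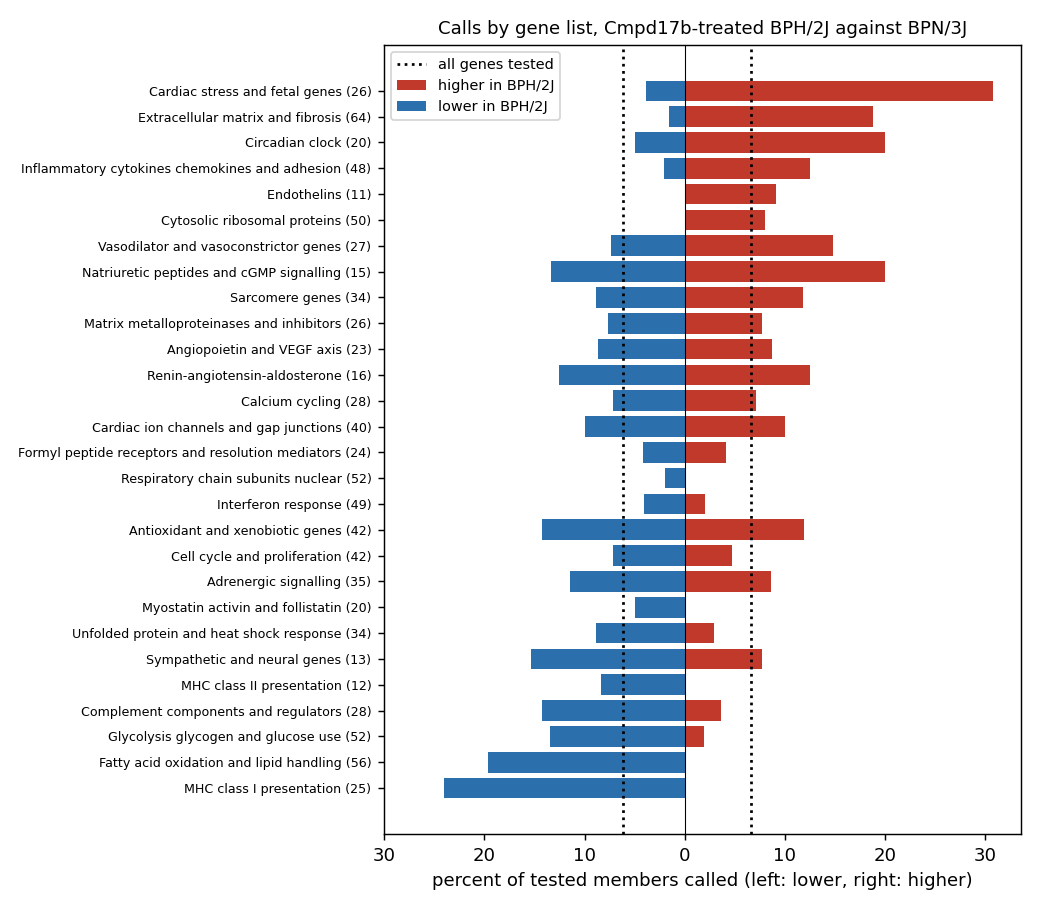
Percent of the tested members of each pathway list (number tested in brackets) called higher (red, to the right) or lower (blue, to the left) in treated BPH/2J than in treated BPN/3J at an adjusted p under 0.05, with dotted lines at the share of all genes tested (6.57% higher, 6.16% lower). Cardiac stress genes and extracellular matrix genes lie beyond the line on the higher side, and MHC class I and fatty acid genes beyond it on the lower side with no higher call.

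Of 20 tested circadian clock genes 4 were higher and 1 was lower (25% called, against 12.7% of all genes). The median was 0.29, where under vehicle none was higher, 1 was lower and the median was -0.02. Dbp, an output transcription factor of the clock, gave 149, 133, 156, 130 and 159 CPM in treated BPH/2J and 120, 58.9, 104, 90.5 and 58.2 CPM in treated BPN/3J (0.75 ± 0.22, adjusted p by edgeR = 0.0228). Ciart, whose promoter with 3 E-boxes is shown above, gave 9.48, 9.08, 17.0, 12.5 and 16.4 CPM against 9.21, 2.61, 7.10, 5.19 and 2.07 CPM (1.29 ± 0.40, adjusted p by edgeR = 0.0409), with overlap through BPN/3J replicate 1. Bhlhe40, a repressor of the same loop, and Usp2, a deubiquitinase under clock control, were higher by 0.43 ± 0.14 and 0.49 ± 0.16. All 4 calls were lost without BPN/3J replicate 2 and without BPN/3J replicate 5, when none of the 20 genes was higher, and 1 was higher without BPH/2J replicate 3 or 5 and without a filter on low counts. Those mice also held the highest values of Bmal1, the core activator, at 12.0 and 10.6 CPM against 4.29 to 7.74 CPM in their group mates and 2.31 to 5.31 CPM in treated BPH/2J (-1.04 ± 0.35, adjusted p by edgeR = 0.0584). Per1, Per2 and Per3, the period genes, which were named with Bmal1 after their values were seen, were not called, and Per1 ranged from 14.3 to 43.8 CPM within treated BPN/3J and from 16.5 to 51.1 CPM within treated BPH/2J. The time of tissue collection is not given in the labels, so its part was not tested. Of the 16 clock genes with a promoter in the RefSeq table, 5 held CACGTG, Ciart among them, and the windows of Dbp and Usp2 held none.

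Housekeeping and quality lists were also counted. Of 50 cytosolic ribosomal protein genes on the list 4 were higher and none lower, where 6.57% of all genes were higher. The fit of the 10 libraries gave 12 and none, where 10.2% of all genes were higher. Of the 50 log2 differences 42 were positive, with a median of 0.11. The called genes include Rpl26, described above, and Rplp0, of the ribosomal stalk, at 454 to 525 CPM against 347 to 398 CPM (0.38 ± 0.08). Rpl29 and Rpl30, called in opposite directions above, are not on this list. None of 26 immediate early genes was called. Among abundant genes outside the lists, Glul, glutamine synthetase, gave 294 to 466 CPM in treated BPH/2J against 157 to 213 CPM (1.08 ± 0.17), Prdx2, a peroxiredoxin, and Adprhl1, a heart-specific ADP-ribosylhydrolase-like protein, were higher by 0.33 ± 0.08 and 0.39 ± 0.09. Gsn, gelsolin, an actin-severing protein and the called member of the fibroblast markers, was lower by -0.50 ± 0.11. Of 5 tested sex-linked genes 2 were lower, both on the Y chromosome: Kdm5d, a histone demethylase, gave 11.5 to 14.0 CPM against 14.8 to 17.2 CPM and Uty 12.4 to 15.2 CPM against 17.0 to 18.5 CPM.

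The same contrast in the vehicle mice, which shares no library with the treated one, asked how much of the difference was there without the drug. Under vehicle 2402 genes were called (15.6%), 7.44% higher in BPH/2J and 8.16% lower, or 1509 when the 10 vehicle libraries were fitted alone. Of the 1961 genes called under Cmpd17b, 1414 (72.1%) were also vehicle calls, each with the same sign, and these are 58.9% of the vehicle calls. The sign was the same in 98.6% of the 1961, against 62.9% of genes not called. Of the 218 called genes that differed by over 8-fold, 217 had the same sign under vehicle. Across all 15400 genes, which are not independent, the log2 differences correlated at Pearson r = 0.869, and across the 1961 at 0.955. The median size of the log2 difference of the 1961 was 0.79 under Cmpd17b, where they were chosen, and 0.68 under vehicle.

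**Figure D5:**
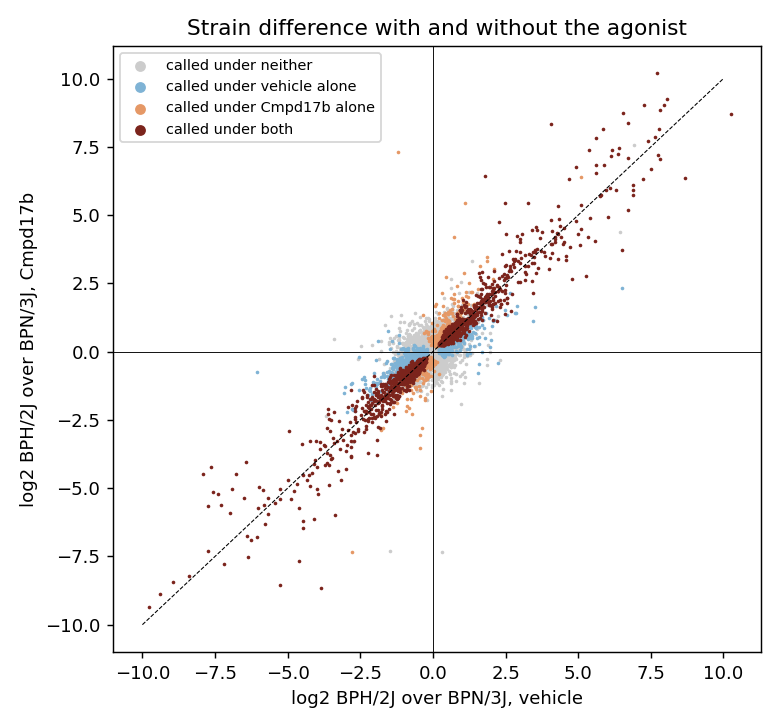
Log2 difference between BPH/2J and BPN/3J under vehicle (x axis) and under Cmpd17b (y axis) for each of the 15400 genes tested, coloured by where the gene was called at an adjusted p under 0.05; the dashed line marks equal values. The 1414 genes called under both lie in the upper right and lower left, and 28 of the 547 called under Cmpd17b alone have the opposite sign under vehicle.

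No gene passed the test of the difference between the strain effects. The interaction of strain and treatment gave 0 calls among 15400 genes by edgeR (0%), with 714 (4.64%) at an unadjusted p under 0.05 and a smallest adjusted p of 0.855. DESeq2 and limma voom also gave 0, with 801 and 881 genes at an unadjusted p under 0.05. Of the 547 genes called under Cmpd17b and not under vehicle, 106 had an interaction at an unadjusted p under 0.05 and 28 had the opposite sign under vehicle. The 8 genes with the smallest interaction p are given as values. Pdk4, the kinase that shuts glucose carbon out of the citric acid cycle, gave 350, 332, 136, 173 and 206 CPM in treated BPH/2J and 520, 240, 172, 334 and 354 CPM in treated BPN/3J, with full overlap (-0.44 ± 0.29), beside a log2 difference of 1.59 under vehicle (interaction p by edgeR = 8.22e-05 unadjusted). Prrg1 and Hsd17b11 had small negative differences under Cmpd17b (-0.14 and -0.21) and positive ones under vehicle (0.66 and 0.37). Slc6a6, the taurine transporter, and Nrgn, neurogranin, had positive differences under Cmpd17b (0.20 and 0.76) and negative ones under vehicle (-0.36 and -1.53). Fst, follistatin, which binds activin and myostatin, was at -0.79 and 1.55. Scd4, the cardiac stearoyl-CoA desaturase, was at 0.19 and 1.96, and Clec2e was higher in both (1.80 under vehicle).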

How the data were processed

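Left ventricular polyadenylated RNA was sequenced in 26 mice, and the 20 batch 1 libraries (4 groups of 5) were used here. The authors deposited a table of estimated counts per gene (expected counts, 40413 genes, 93.3% of values whole). Trim Galore 0.6.7 (trimming), STAR 2.7.9a (alignment) and the build GRCm39 are named, per the submitters' processing notes. The counting program, its strand setting and the annotation were not given in the sources used here. Reads of overlapping and antisense genes cannot be told apart. Values were rounded to whole numbers. edgeR 4.0.16 (R 4.3.3) fitted all 4 groups with TMM scaling, its expression filter and the robust quasi-likelihood test, and Benjamini-Hochberg adjustment ran over 15400 genes at a threshold of 0.05. Contrasts were strain under Cmpd17b, strain under vehicle and their difference. The script was tested on simulated counts. Alternatives were RLE scaling, DESeq2 1.42.0, limma 3.58.1 voom, other filters, other sets of libraries and leaving out each library; the fit of 18 libraries without vehicle BPN/3J replicate 7 and treated BPH/2J replicate 4 was chosen after seeing the data. Genes named are the 10 largest called differences per direction with no overlap, a proper symbol and a mean log2 CPM of 1 or more; up to 6 called members of each list by p; a fixed set of heart and blood pressure genes; the 8 smallest interaction p-values; the 8 most abundant called genes per direction; and members of the 5 longest runs. Acadm, Alb, Bmal1, Cd74, Clcn6, Cpt2, H2-Aa, H2-Eb1, Kap, Myl7, Per1, Per2, Per3, Rpl30 and Slc25a20 fall outside this rule and were chosen after their values were seen. Some genes that the rule names are not reported here. The members and lists were chosen with earlier results of these data known. Promoters are from RefSeq, build GRCm38.p6.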

Additional observations from a re-analysis of the deposited data

Results flagged for a closer look

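Dixon's test of the highest and lowest library in each treated group of 5 marked 33 of 312 checks (10.6%). For normal values chance marks about 1 in 20. The genes checked are among those named in the text, and Cd74, H2-Aa and H2-Eb1, among others, were chosen after their values were seen. The checks are also not independent, so the 2 shares cannot be compared as a test. BPH/2J replicate 4 held 11 of them, all as the highest of its group. In CPM it gave 61.3 for Cd74, 26.31 for H2-Aa, 20.93 for H2-Eb1, 130.8 for H2-K1, 220 for B2m, 8.778 for Tgtp1 and 7.336 for the chemokine gene Ccl8. In muscle genes it gave 1392 CPM for Des, 12.28 for Neb and 7.018 for Myl4, and it gave 0.9047 CPM for the lymphocyte gene Tagap. The other 4 treated BPH/2J libraries lay between 686.2 and 720.9 CPM for Des and between 12.53 and 22.87 CPM for Cd74.

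In the other treated BPH/2J libraries, replicate 1 was the highest for Agt (1.088 CPM) and the lowest for H2-Q10 (0.1674 CPM). Replicate 2 was the highest for Cyp2b10 (0.3673 CPM) and Ucp2 (42.14 CPM), and replicate 3 for Slc2a12 (7.371 CPM). Replicate 5 was the highest for Decr1 (372.4 CPM), for Ech1 (974 CPM) and for the mitochondrial share of counts (37.7%).

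Among treated BPN/3J libraries, replicate 5 was marked 5 times. It was the lowest for Nppa (75.73 CPM, the others 178.7 to 198.6 CPM) and Ucp2 (91.37 CPM), and the highest for Cyp2b10 (6.83 CPM), Kcnv2 (25.31 CPM) and Gstm1 (277.4 CPM). Replicate 2 was the highest for Myh7 (1428 CPM, the others 984 to 1019 CPM), Pde4a (83.98 CPM), Eno3 (1326 CPM) and Plppr1 (0.2032 CPM). Replicate 1 was the highest for Eno1b (2.367 CPM) and Cyp4b1 (4.393 CPM), replicate 3 for Mstn (0.9844 CPM), and replicate 4 for B2m (273.4 CPM) and Rpl30 (51.16 CPM).

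Of the treated libraries left out because they belong to batch 2, BPH/2J replicate 7 gave 24900 counts per 1e6 counts, without TMM scaling, for the kidney gene Kap. On that unscaled measure the 20 batch 1 libraries lay between 0.58 and 122.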

How the results depend on the processing

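The 1961 calls under Cmpd17b became 3287 with limma voom (1598 higher, 1689 lower) and 3022 without vehicle BPN/3J replicate 7 in the shared fit (1440 higher, 1582 lower), and lay between 1634 and 1771 when 1 treated library was left out. Of the 1961, 1960 were also called without vehicle BPN/3J replicate 7, 1842 in the fit of the 10 treated libraries alone and 1614 without treated BPH/2J replicate 4. The 2402 vehicle calls became 1509 in the fit of the 10 vehicle libraries alone (735 higher, 774 lower) and lay between 1945 and 3060 when 1 vehicle library was left out, 3060 being without BPN/3J replicate 7. The interaction gave 0 calls under each alternative run. Of 3132 values of named genes under alternatives, 3017 kept direction and side of the threshold, 69 lost the call, 44 gained one and 2 changed sign: Myh7, from -0.07 to between -0.101 and 0.051 on leaving out 1 library, above 0 without BPN/3J replicate 2, and Scd4, from 0.19 to between -0.105 and 0.377, below 0 without BPH/2J replicate 1. Of 1748 list counts under alternatives 325 moved beyond 1.5 times. The cause of these changes was not tested. No paired analysis was possible because the labels give the animals of different groups no shared replicate number. Depth limits calls for genes near the filter, such as Fpr1 and Fpr2.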
